A study of Mus musculus with 12 samples.

Results

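The transcripts described here encode the germ cell forms of glycolytic enzymes, measured by RNA sequencing of F1 mouse testes. The list holds 8 genes whose products serve glycolysis in spermatids and sperm, namely Pgk2, Ldhc, Gapdhs, Ldhal6b, Eno4, Aldoart1, Aldoart2 and Pgam2, together with Ldha and Hk1, 2 widely expressed genes kept for comparison. Members were taken by gene symbol. All 10 were found among the 20788 genes of the deposited table, and all 10 were among the 16395 genes that passed the filter on low counts.

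Glycolysis splits glucose into pyruvate, and lactate dehydrogenase then turns pyruvate into lactate. Germ cells that enter meiosis silence the X chromosome, which carries the somatic phosphoglycerate kinase gene Pgk1, and in their later stages they transcribe separate genes for several glycolytic enzymes, some of them intronless copies of the somatic gene. In the sperm tail several of these enzymes are bound to the fibrous sheath, where they supply ATP for movement.

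The labels give 4 groups of 3 libraries, all from testes of F1 mice with the strain label IRC mouse. The knockdown group (labelled 8276KD) and the overexpression group (labelled 8276OV) received virus for inhibition or overexpression of lncRNA8276, a long non-coding RNA. The groups labelled 3NC and 5NC are taken as controls and are called control_3NC and control_5NC. The design text lists 5NC before overexpression and 3NC before knockdown, and the comparisons follow that order. The labels state no age, do not say what virus the control testes received or which testis cells took it up, and do not say whether each library is a different mouse. The p-values therefore rest on library-to-library spread alone, part of which could be technical. No value for lncRNA8276 itself is reported, and the knockdown and overexpression labels have no check of that kind.

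Libraries held 13485479 to 15771655 estimated counts. The transcripts of spermatids that mark testis tissue were abundant in all 12 libraries, with 17707 to 25729 normalised CPM (counts scaled to a common library size) summed over 10 elongating spermatid markers. Control_3NC 2 stood apart. Its median correlation with the other libraries was 0.954 against 0.980 to 0.988 for the rest, and its 6 macrophage and leukocyte markers summed to 269 CPM against 49.8 to 76.3 CPM in the other libraries. The 3 lowest totals were those of control_5NC 2, control_5NC 3 and overexpression 2, at 13485479 to 13847277 counts, and the other 9 libraries held at least 15252025. The effective gene length implied by the deposited counts and FPKM (fragments per kilobase of gene length, scaled to library size) also differed between libraries, from 14.3 bases under the mean of all libraries in control_3NC 2 to 13 bases over it in overexpression 1. In bulk tissue, fewer cells of a type and less RNA per cell cannot be told apart.

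Positions and sequences show how these genes are built and how alike they are to their somatic partners. All coordinates are on GRCm38, the assembly behind mm10, from GENCODE M21. Pgk2 (Entrez 18663, phosphoglycerate kinase) is a single-exon gene on the minus strand at chr17:40207015-40208640, and its coding sequence matched that of X-linked Pgk1 at 79.3% of aligned bases. Aldoart1 (353204) at chr4:72850583-72852634 and Aldoart2 (79459) at chr12:55565239-55566896 are single-exon copies of the aldolase gene Aldoa and matched it at 94.2% and 91.6% of coding bases. Ldhal6b (106557), a further lactate dehydrogenase, is also a single-exon gene, at chr17:5417323-5418767, where it lies within the span of Tmem242 and overlaps the antisense gene Gm29050. Ldha (16828) at chr7:46841475-46855627 and Ldhc (16833) at chr7:46861203-46878142 follow each other on the plus strand, and their coding sequences matched at 73.7% of bases.

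The remaining members have introns. Gapdhs (14447), the sperm glyceraldehyde-3-phosphate dehydrogenase, has 11 exons at chr7:30729775-30743681 and matched Gapdh at 72.4% of aligned coding bases. It overlaps the antisense genes Gm26935 and Tmem147os. Pgam2 (56012), the muscle form of phosphoglycerate mutase that male germ cells also transcribe, has 3 exons at chr11:5801640-5803733 and matched Pgam1 at 74.8%. Eno4 (226265), an enolase of the sperm tail, has 14 exons at chr19:58943425-58971421, overlaps Hspa12a, and matched Eno1 at 62.8%. Hk1 (15275), the hexokinase that starts the pathway, lies at chr10:62268855-62379908 with 20 annotated transcripts and overlaps the antisense gene Hk1os. No source used here says whether strand was used in counting, and reads of the antisense genes may be included in the values of Gapdhs, Ldhal6b and Hk1. Hspa12a lies on the strand opposite to Eno4, and its reads may likewise be included in the values of Eno4. Tmem242 lies on the same strand as Ldhal6b.

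The first 60 coding bases of the aldolase genes are shown as an example of how alike the copies are, and capitals mark each base that differs from Aldoa, at 6 positions in Aldoart1 and 4 in Aldoart2.
Aldoa: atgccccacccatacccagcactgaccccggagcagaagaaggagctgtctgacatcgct
Aldoart1: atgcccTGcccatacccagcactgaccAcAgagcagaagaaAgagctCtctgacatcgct
Aldoart2: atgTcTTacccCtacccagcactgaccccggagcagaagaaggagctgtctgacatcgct
Stretches this alike can share reads between genes. The estimated counts of Aldoart2 were nevertheless whole numbers in 12 of 12 libraries and those of Aldoart1 in 11 of 12, whereas Gapdh and Eno1 had fractional counts in 12 of 12 libraries and Eno4 had them in 5. The levels of Gapdh, Eno1 and, to a lesser degree, Eno4 are therefore uncertain.

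The 120 bases upstream of the Ldhc and Ldha start sites are shown because the 2 genes are neighbours that both varied little across libraries. Those of Gapdhs, Pgam2 and Aldoart2 are shown because these 3 genes were low in the same libraries. Sequences are from RefSeq windows on GRCm38.p6, read on the strand of the gene, and capitals mark matches to the cyclic AMP response element, the binding motif of the CREB and CREM factors, in its full form TGACGTCA or its short form TGACG.
Ldhc chr7:46861143-46861262 (+): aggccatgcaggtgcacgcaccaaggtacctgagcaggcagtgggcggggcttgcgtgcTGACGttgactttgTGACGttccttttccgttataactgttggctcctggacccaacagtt
Ldha chr7:46845684-46845803 (+): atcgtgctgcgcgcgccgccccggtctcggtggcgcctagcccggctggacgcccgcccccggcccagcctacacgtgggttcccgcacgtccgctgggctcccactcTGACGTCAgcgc
Gapdhs chr7:30743682-30743801 (-): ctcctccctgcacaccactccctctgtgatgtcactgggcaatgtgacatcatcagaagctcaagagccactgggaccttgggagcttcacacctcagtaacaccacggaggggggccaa
Pgam2 chr11:5803797-5803916 (-): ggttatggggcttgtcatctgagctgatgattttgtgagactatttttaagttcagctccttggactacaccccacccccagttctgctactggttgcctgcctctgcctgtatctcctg
Aldoart2 chr12:55565085-55565204 (+): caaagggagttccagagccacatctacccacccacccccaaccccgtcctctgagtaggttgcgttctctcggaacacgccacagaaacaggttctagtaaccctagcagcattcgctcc
Both motifs were searched on both strands in the whole windows, which run from 250 bases before to 50 bases after a start. The 9 members with an entry had 13 windows. Ldha held the full motif, starting 12 bases before the start site, in 1 of its windows, and the full form contains the short one. Ldhc held the short form at 61 and at 47 bases before its start. A second Ldha window held the short form once, 143 bases before that start, and Gapdhs held it once, at position 38 after the start and so outside the bases printed. Of all 32851 mouse windows of this length, 1.79% held the full motif and 20.8% the short one. These matches describe letters in a window and are not shown to be binding sites.

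In testis RNA the lactate dehydrogenase gene of germ cells was far above the other members, and the enolase of the sperm tail was the lowest. Ldhc averaged 2839 FPKM over the 12 libraries, with a range of 2523 to 2990.5. Gapdhs (mean 913), Pgam2 (751), Pgk2 (642), Ldha (594), Ldhal6b (548) and Hk1 (444) formed a middle group. Aldoart2 averaged 212.5 FPKM, Aldoart1 84.8 and Eno4 17.5. FPKM corrects for gene length, so these levels can be set beside each other, with limits. Reads shared between genes or taken from overlapping genes may enter some of them, as described above. The unit of the deposited values is inferred.

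Ldhc was above Gapdhs in all 12 libraries, by 2.56 to 4.22 times. In the middle group each gene's range over libraries overlapped that of its neighbour in the order. Within libraries Gapdhs was nevertheless above Pgam2 in 12 of 12, by 1.05 to 1.36 times, whereas Pgam2 was above Pgk2 in 7 of 12. The lower steps were clear of each other. Hk1 exceeded Aldoart2 by 1.95 to 2.23 times, Aldoart2 exceeded Aldoart1 by 2.16 to 2.88 times, and Aldoart1 exceeded Eno4 by 3.45 to 7.15 times, each in 12 of 12 libraries. The 10 genes together took 0.859% to 1.07% of a library's counts, with the lowest share in control_3NC 2.

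The members differed widely in how steady they were. Over the 12 libraries the coefficient of variation of FPKM was 3.69% for Ldha and 4.41% for Ldhc, and only 0.554% and 1.96% of the 6681 genes with a mean of at least 10 FPKM varied less. Ldhal6b (8.36%), Aldoart1 (9.17%) and Pgk2 (9.39%) also varied less than the median gene, at 11.3%. Hk1 (12.4%), Aldoart2 (13.0%), Eno4 (17.0%), Gapdhs (17.4%) and Pgam2 (18.8%) varied more.

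**Figure D1:**
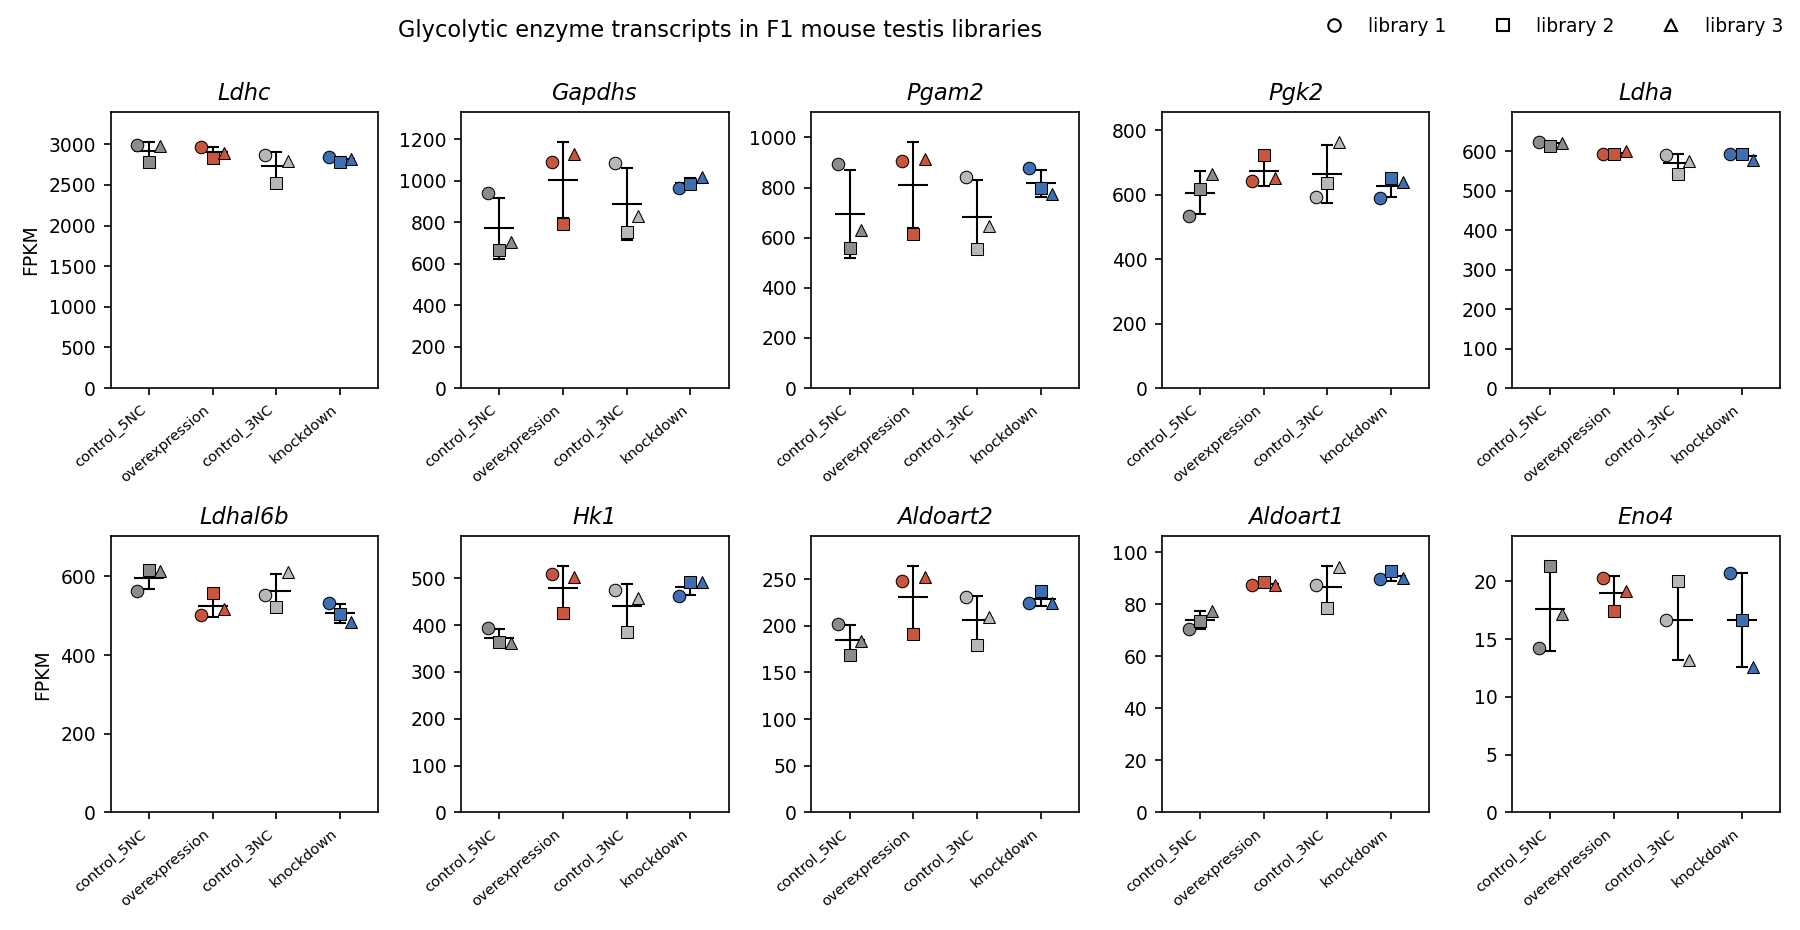
Deposited FPKM (y axis, linear from 0) of the 10 genes in each library, by group (x axis), with circles, squares and triangles for libraries 1, 2 and 3, and a bar with whiskers for the group mean ± SD (n = 3). Ldhc stays between 2523 and 2990.5 in all libraries, whereas Gapdhs runs from 668 to 1131 and Pgam2 from 554 to 914. Aldoart1, Hk1, Gapdhs, Aldoart2 and Pgk2 are lowest on average in control_5NC.

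Of the members, the lactate dehydrogenases Ldha and Ldhc were the most even. Ldhc, the germ cell form, was measured at 2990.5, 2782 and 2976 FPKM in control_5NC and at 2971, 2837 and 2895 FPKM in overexpression. It stood at 2869.6, 2523 and 2788 FPKM in control_3NC and at 2839, 2785 and 2817 FPKM in knockdown. The groups overlapped throughout, and the lowest library was control_3NC 2. Ldha, the form of muscle and most other tissues, ran from 543 FPKM in control_3NC 2 to 623 FPKM in control_5NC 1. Of the summed FPKM of Ldha, Ldhb, Ldhc and Ldhal6b, Ldhc supplied 68.0% to 71.8%, Ldha 14.3% to 15.04% and Ldhal6b 12.1% to 15.2%. Ldhb, the heart form, supplied 1.32% to 2.25%.

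Overexpression of lncRNA8276 against control_5NC asks which transcripts differ when the RNA is raised. None of the 10 glycolytic members passed. The 2 nearest were Hk1 and the aldolase copy Aldoart1, with values 1.33 and 1.23 times higher in overexpression, and Aldoart2 (1.29 times) and Gapdhs (1.35 times) followed. The values of Ldhc and Ldha were 1.04 and 0.996 times those of the control. In edgeR's quasi-likelihood test with Benjamini-Hochberg adjustment over all 16395 genes, 78 genes were called at an adjusted p under 0.05, which is 0.476% of those tested, and the members called were 0 of 10.

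At an unadjusted p under 0.05 there were 4 members (Hk1, Aldoart1, Aldoart2 and Gapdhs), all higher, where 15.3% of all genes reached that level and 8.9% of all genes did so with a higher value. Of the 10 members 8 had a higher and 2 a lower value. Their median log2 fold change was 0.24, against -0.012 over all genes.

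Hk1, hexokinase, which commits glucose to the cell, was measured at 395, 363 and 362 FPKM in control_5NC. In overexpression it was measured at 510.4, 426 and 504 FPKM. All 3 overexpression libraries were above all 3 controls, with overexpression 2 the nearest to them. The group means were 480.1 ± 46.7 FPKM against 373 ± 18.6 FPKM (SD, n = 3 each), and the log2 fold change on normalised counts was 0.41 ± 0.12 (SE; edgeR adjusted p = 0.126). The adjusted p ranged from 0.0201 with DESeq2 to 0.486 without overexpression 3. Germ cells also make Hk1 transcripts of their own, and the deposited values do not separate the 20 annotated transcripts.

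The aldolases split fructose bisphosphate. Aldoart1 stood at 70.65, 73.6 and 77.4 FPKM in control_5NC and at 87.44, 88.6 and 87.45 FPKM in overexpression. The groups did not overlap, and the overexpression libraries lay close to each other. Its log2 fold change was 0.30 ± 0.094 (SE; edgeR adjusted p = 0.150), and the adjusted p ran from 0.0456 with DESeq2 to 0.498 without overexpression 3. Aldoart2 stood at 202, 169 and 183 FPKM in control_5NC and at 248, 191 and 252 FPKM in overexpression. Overexpression 2 lay inside the control range, and the log2 fold change was 0.37 ± 0.14 (SE; edgeR adjusted p = 0.223). Their parent gene Aldoa had a log2 fold change of 0.29 (edgeR adjusted p = 0.164).

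Gapdhs, the glyceraldehyde-3-phosphate dehydrogenase bound to the sperm fibrous sheath, was measured at 939, 668 and 706 FPKM in control_5NC. In overexpression it was measured at 1090.0, 793 and 1131 FPKM. The groups overlapped, because overexpression 2 was under control_5NC 1. The log2 fold change was 0.44 ± 0.19 (SE; edgeR adjusted p = 0.293). Pgam2, which moves the phosphate of phosphoglycerate, was measured at 892, 558 and 631 FPKM against 907, 613 and 914 FPKM, and its 95% interval on the log2 scale ran from -0.21 to 0.79. Of the members these 2 genes had the largest SD in FPKM inside both groups, a measure that is not relative to a gene's level.

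Pgk2, which makes ATP in spermatids and sperm, was measured at 533, 619 and 665 FPKM in control_5NC and at 642, 723 and 652 FPKM in overexpression. In FPKM the groups overlapped, while on normalised counts all 3 overexpression libraries were above the controls, with a log2 fold change of 0.20 ± 0.12 (SE; edgeR adjusted p = 0.463). Ldhal6b went the other way, from 562, 616 and 613 FPKM to 502, 558 and 516 FPKM, with no overlap and a log2 fold change of -0.13 (95% interval -0.33 to 0.069). Counted over members on normalised counts, Hk1, Aldoart1 and Pgk2 were above the controls without overlap, a pattern shown by 11.7% of all genes, and Ldhal6b was below, as were 10.3% of all genes.

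Ldhc differed by 0.056 (95% interval -0.14 to 0.26) and Eno4 by 0.10 (-0.25 to 0.45) on the log2 scale. Ldha had a log2 fold change of -0.0058 (-0.17 to 0.16). In FPKM its overexpression libraries, at 594, 595 and 601, were all under those of control_5NC, at 623, 615 and 622, a difference that normalised counts did not show. With total counts as the only scaling its log2 fold change was -0.046 (edgeR adjusted p = 0.753).

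**Figure D2:**
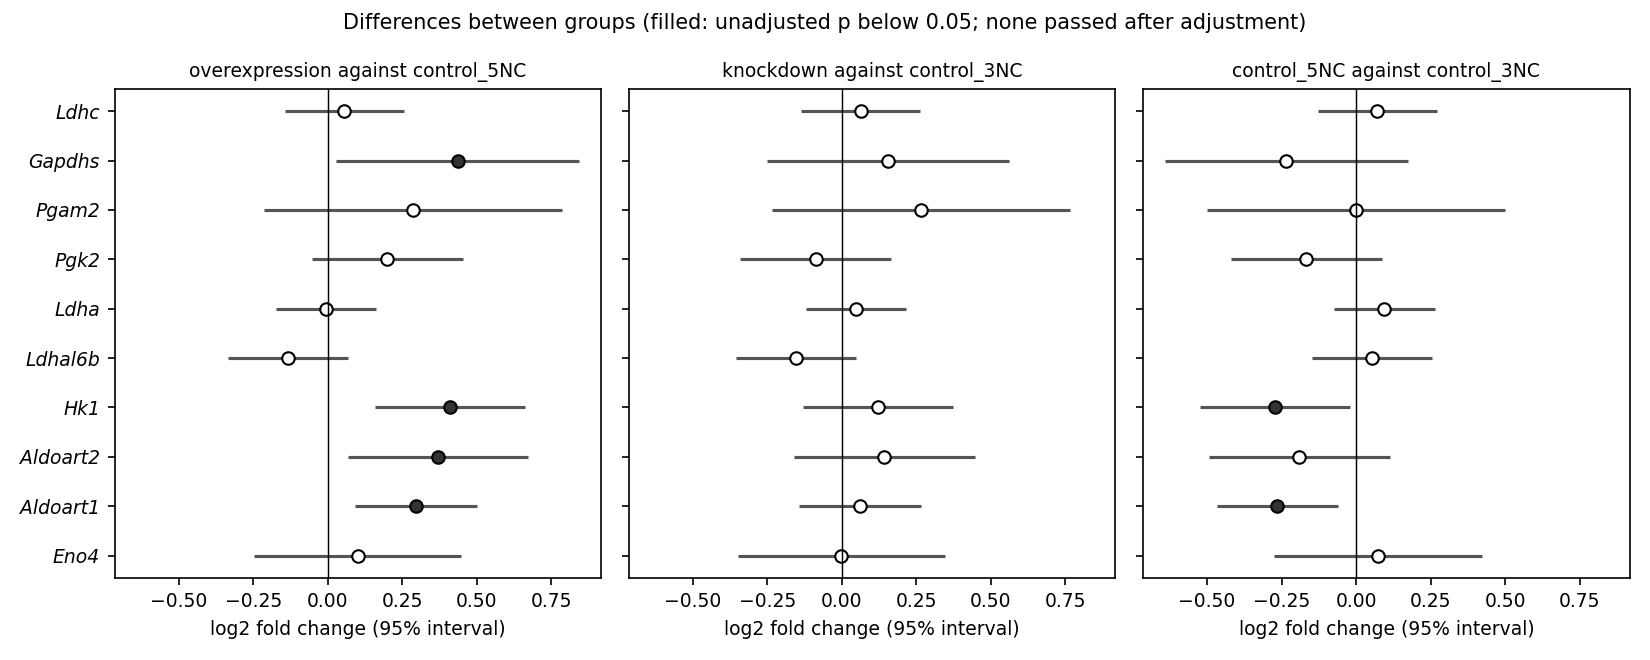
Log2 fold change from edgeR (x axis) of each member (rows) in 3 comparisons (panels), with its 95% interval. Hk1, Aldoart1, Aldoart2 and Gapdhs lie clear of 0 in the overexpression panel at unadjusted p under 0.05 (filled), Hk1 and Aldoart1 lie below 0 in the panel of the 2 control groups, and no member passed after adjustment.

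Sequencing depth fell unevenly across these 6 libraries, since control_5NC 2, control_5NC 3 and overexpression 2 had the lowest totals. The fold was recomputed inside each depth class, which leaves 1 library on one side and no test. Hk1 was 1.19 times higher among the libraries with low totals and 1.33 times higher among the others, and Aldoart1 was 1.19 and 1.28 times higher. Gapdhs was 1.17 and 1.23 times higher, Pgk2 1.14 and 1.26 times, and Aldoart2 1.10 and 1.28 times. Eno4 was at 0.905 and 1.31 times its control values, and Ldhal6b at 0.921 and 0.941 times. Ldhc was at 1.01 and 1.02 times, and Ldha at 0.973 and 0.994 times. Pgam2 was 1.05 and 1.06 times higher inside the classes, against 1.22 times over all 6 libraries. With a term for the low totals in the edgeR fit, the log2 fold change of Pgam2 was 0.077 and that of Gapdhs 0.26. With a term for the effective length, chosen after the data were seen, Gapdhs came to 0.060, Aldoart2 to 0.086 and Pgam2 to -0.18, while Hk1 came to 0.20 and Aldoart1 to 0.23 (edgeR adjusted p = 0.330 and 0.361).

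Knockdown of lncRNA8276 against control_3NC asks the reverse question. No member passed, and the fitted folds ran from 0.899 to 1.20. Pgam2 had the largest value, with a log2 fold change of 0.26 (95% interval -0.24 to 0.77), and Ldhal6b the lowest, at -0.15 (-0.36 to 0.048). In edgeR's test 3 of all genes were called, 0.0183% of those tested, and 0 of 10 members. None of the 10 had an unadjusted p under 0.05, against 8.69% of all genes, and no member's groups were free of overlap, where 6.48% of all genes lay wholly above and 6.57% wholly below the controls.

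The control_3NC libraries were spread wider than the knockdown libraries for most members. Gapdhs was measured at 1084, 753 and 832 FPKM in control_3NC and at 965, 983 and 1017 FPKM in knockdown, so the knockdown values lay inside the control range. Hk1 was measured at 476, 386 and 459 FPKM in control_3NC and at 462.5, 493 and 491 FPKM in knockdown. Pgk2 was measured at 593, 636 and 764.5 FPKM in control_3NC and at 588, 652 and 639.5 FPKM in knockdown. For Hk1, Aldoart2, Pgam2 and Gapdhs the lowest of these 6 libraries was control_3NC 2, the library with the raised leukocyte markers.

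Without control_3NC 2 the members' values were nearer to 0, or under it, for Hk1, Gapdhs, Ldhc and Ldha. The log2 fold change of Hk1 went from 0.12 to 0.0041 and that of Gapdhs from 0.15 to 0.014. Ldhal6b went from -0.15 to -0.24 (edgeR adjusted p = 0.804), Ldhc from 0.062 to -0.032 and Ldha from 0.048 to -0.024. The members called remained 0, and the genes called were 2.

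The 2 control groups were also set against each other, and no member passed. For control_5NC against control_3NC the log2 fold change of Aldoart1 was -0.26 ± 0.094 (SE; edgeR adjusted p = 0.294) and that of Hk1 -0.27 ± 0.12 (SE; edgeR adjusted p = 0.353). These 2 had unadjusted p-values under 0.05 and the other 8 members did not. Over all genes 0.244% were called, 12.9% had an unadjusted p under 0.05, and 7.87% had one with a lower value, and 0 of 10 members were called. On normalised counts the groups overlapped for every member, where 7.02% of all genes lay wholly above and 6.17% wholly below. In FPKM Aldoart1 stood at 70.65 to 77.4 in control_5NC against 78.4 to 94.4 in control_3NC. Ldha stood at 615 to 623 against 543 to 590.2. For neither gene did the groups overlap on that scale, for which the share of all genes without overlap was not computed. Without control_3NC 2 the value of Aldoart1 was -0.37 (edgeR adjusted p = 0.0510) and that of Hk1 -0.39 (adjusted p = 0.0786).

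This comparison and that of overexpression share the control_5NC libraries. The mean of Hk1 was 373 FPKM in control_5NC, against 440.3 in control_3NC, 482 in knockdown and 480.1 in overexpression. The mean of Aldoart1 was 73.9 FPKM in control_5NC, against 86.7, 90.9 and 87.8 FPKM in the same order. For both genes control_5NC was therefore the group with the lowest mean. Gapdhs, Aldoart2 and Pgk2 also had their lowest mean in control_5NC, whereas Ldhc, Ldha, Ldhal6b, Eno4 and Pgam2 did not. Gapdhs averaged 771 FPKM there, against 890 in control_3NC, 988 in knockdown and 1005 in overexpression. The means of Aldoart2 were 185, 206, 229 and 230 FPKM in the same order, and those of Pgk2 606, 664, 627 and 672 FPKM. For Hk1 the mean of control_3NC lay between that of control_5NC and those of the other groups. Control_3NC 2, at 386 FPKM of Hk1, lay inside the control_5NC range of 362 to 395 FPKM.

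The effects of overexpression and knockdown were compared directly, as the difference between the 2 log2 fold changes. No member passed, 3 genes of all those tested did (0.0183%), and no member had an unadjusted p under 0.05 where 6.73% of all genes did. The difference was 0.29 ± 0.16 (SE) for Hk1 and 0.29 ± 0.16 for Pgk2, each with an edgeR adjusted p of 0.776. For Ldhc it was -0.0063, with a 95% interval from -0.29 to 0.28. The members' median was 0.17, against 0.028 over all genes.

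Across libraries several members had their low values in the same places. Pgam2, Gapdhs and Aldoart2 were low together in control_5NC 2, control_5NC 3, overexpression 2 and control_3NC 2. Hk1 and Aldoart1 were instead low in all 3 control_5NC libraries and in control_3NC 2. Hk1 lay at -0.17 in control_5NC 1 and -0.064 in overexpression 2, as log2 differences from its mean. Pgam2 stood at 554 to 646 FPKM in these libraries and control_3NC 3, and at 776 to 914 FPKM in the other 7 libraries. Gapdhs stood at 668 to 832 FPKM in the same 5 libraries and at 939 to 1131 FPKM in the others. Ldhc, Ldha, Ldhal6b and Pgk2 showed neither pattern, and Eno4 was highest in control_5NC 2, at 21.3 FPKM.

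Markers of spermatids were low in the 4 libraries in which Pgam2, Gapdhs and Aldoart2 were low together. The round spermatid list was also low in control_5NC 1, as Hk1 was. The 10 round spermatid markers, taken as the mean log2 deviation from each gene's average, lay at -0.34 in control_5NC 2, -0.27 in control_5NC 3, -0.31 in control_3NC 2 and -0.092 in overexpression 2. They lay at 0.23 and 0.26 in overexpression 1 and 3, and at -0.16 in control_5NC 1. In control_5NC 1 Pgam2 stood at 0.27, Gapdhs at 0.054, Aldoart2 at -0.071 and Hk1 at -0.17. The 10 elongating spermatid markers lay at -0.29, -0.20, -0.28 and -0.17 in the 4 libraries listed first. They lay at 0.059 in control_5NC 1 and at 0.23 and 0.30 in overexpression 1 and 3. The 8 pachytene spermatocyte markers lay at 0.092, 0.13 and 0.12 in control_5NC 1, 2 and 3, at 0.059 in overexpression 2 and at -0.20 in control_3NC 2. Their summed CPM was 4324, 3755 and 3804 in control_5NC and 4245, 3858 and 4273 in overexpression. On that measure control_5NC 2 and 3 were below every overexpression library.

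Summed CPM over the round spermatid list was 1591 to 1874 in control_5NC, 1796 to 2287 in overexpression, 1570 to 2147 in control_3NC and 2057 to 2127 in knockdown. In overexpression against control_5NC all 10 round spermatid markers had higher values, 6 of them at an unadjusted edgeR p under 0.05 and 0 after adjustment, with a median log2 fold change of 0.42. Of all genes 48% had a higher value in this comparison and 8.9% had one at an unadjusted p under 0.05. The elongating spermatid list had 8 higher and 2 lower, a median of 0.27 and 0 called. The pachytene list had a median of -0.20 and 0 called. In knockdown against control_3NC the round spermatid markers again had 10 higher, with a median of 0.095 and 0 called. There 45.3% of all genes were higher. In control_5NC against control_3NC 1 round spermatid marker was higher and 9 were lower, with a median of -0.26 and 0 called. Among the lower ones 4 had an unadjusted edgeR p under 0.05, as did 7.87% of all genes. No defining marker of these lists was at 0 in all libraries. Their part in the values of Hk1, Aldoart2, Gapdhs and Pgam2 was not tested. The effective length was shortest in control_3NC 2, control_5NC 3 and control_5NC 2 and longest in overexpression 1 and 3, the libraries in which the round spermatid list was lowest and highest.

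**Figure D3:**
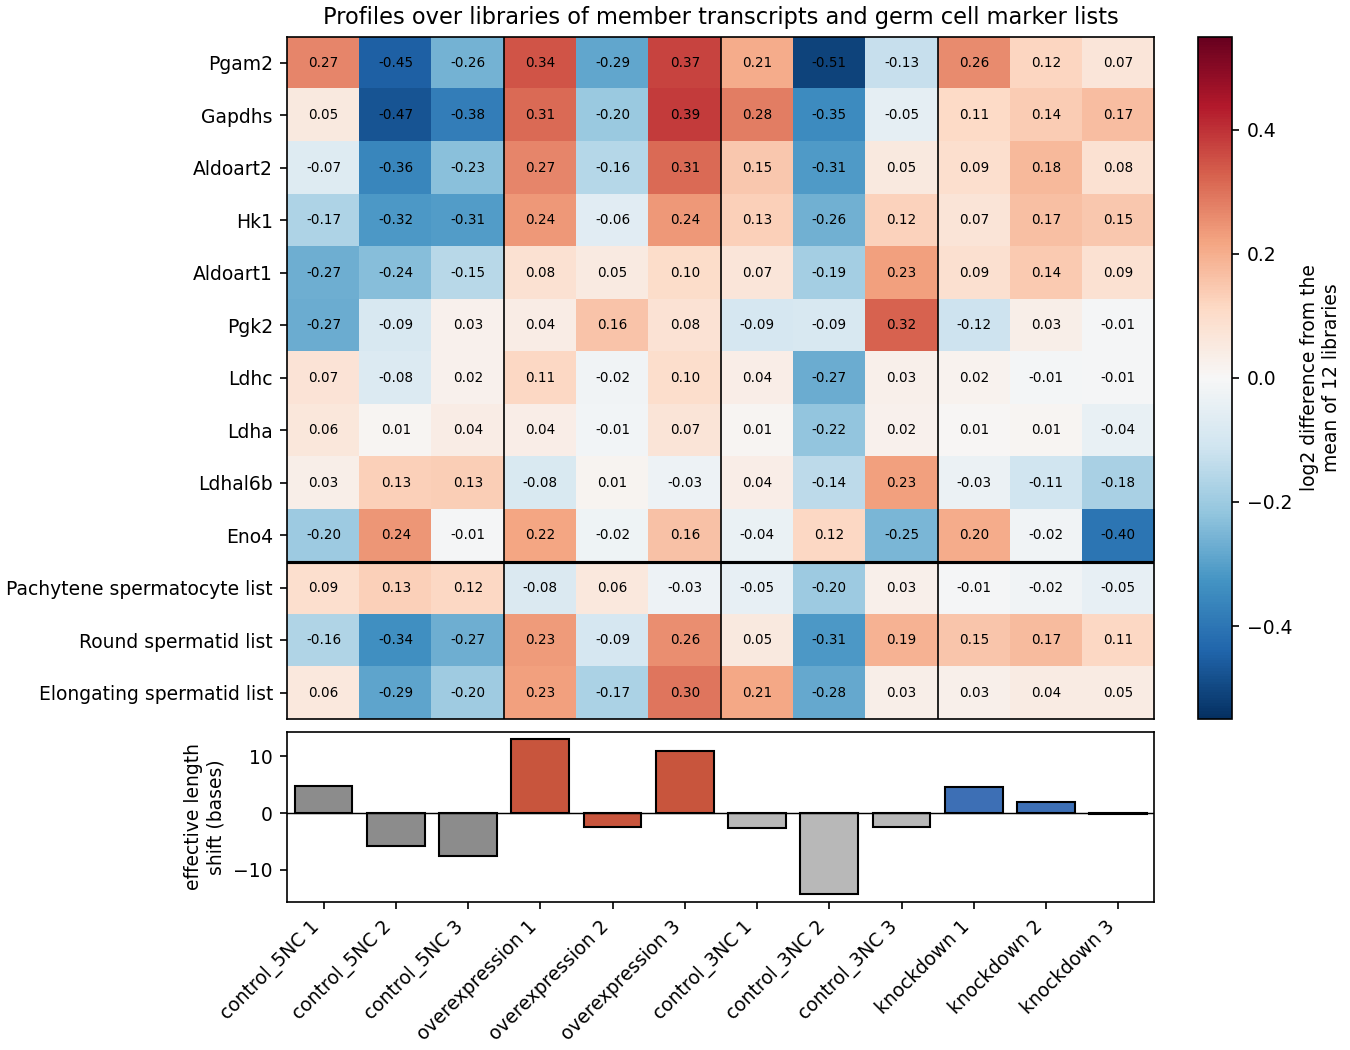
Log2 difference of normalised CPM from the mean of 12 libraries (colour and printed value) for each member and for 3 germ cell marker lists (rows) in each library (columns), above the effective length shift of the library in bases (bars). Pgam2, Gapdhs, Aldoart2 and both spermatid lists are below 0 in control_5NC 2, control_5NC 3, overexpression 2 and control_3NC 2. Hk1, Aldoart1 and the round spermatid list are below 0 in all of control_5NC and in control_3NC 2. Ldhc and Ldha stay near 0 outside control_3NC 2.

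Pgam2 is also the form of skeletal muscle, so muscle markers were checked. Of 11 listed muscle markers 6 passed the filter on low counts. Summed over the list they came to 62.0 to 68.4 CPM in control_5NC, 72.4 to 88.1 in overexpression, 56.1 to 68.1 in control_3NC and 69.9 to 78.5 in knockdown. Eno3, the muscle enolase, supplied most of this at 43.7 to 65.0 CPM, and Ryr1, a calcium release channel, was at 4.07 to 19.3 CPM. Ckm, muscle creatine kinase, was at 0.216 to 1.06 CPM over the 12 libraries and Mylpf, a myosin light chain, at 0.947 to 1.89 CPM. Ryr1 was the 1 list gene called in overexpression against control_5NC, with a log2 fold change of 1.56 (edgeR adjusted p = 0.0353). The part of muscle RNA in the values of Pgam2 was not tested.

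Genes with the most similar profiles were sought for 3 members, among 9859 genes with a mean of at least 10 normalised CPM, by the root mean square difference of centred log2 values over the 12 libraries. For Ldhc the closest were Arl2bp (0.029), Eif3g (0.029) and Stkld1 (0.033), and its neighbour Ldha ranked 15 at 0.041, where the median gene was at 0.182. Ldhc and Ldha both varied little, and this distance is small between such genes whether or not they move together. For Gapdhs the closest were Rexo1 (0.040), Irgc1 (0.042) and Spata21 (0.045), against a median of 0.314. Aldoart2 ranked 106 for Gapdhs, Pgam2 ranked 216 and Hk1 ranked 346. For Pgk2 they were Izumo2 (0.047), Ube2n (0.048) and Atad1 (0.050), against a median of 0.211, and the closest member was Aldoart1 at rank 666.

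Each germ cell form was also set against its somatic partner in the same library, a ratio that library scaling cannot change. Pgk2 exceeded Pgk1 by a median of 38.4 times and Pgam2 exceeded Pgam1 by 19.9 times. Gapdhs exceeded Gapdh 5.65 times and Ldhc exceeded Ldha 4.79 times. Ldhal6b was level with Ldha, at 0.920 times. The aldolase copies stayed under their parent, with Aldoart2 at 0.762 and Aldoart1 at 0.305 times Aldoa, and Eno4 was at 0.137 times Eno1. The ratios to Gapdh and Eno1 carry the uncertainty given above for Gapdh, Eno1 and Eno4. Eno1b, a further enolase entry, averaged 86.0 FPKM against 127 for Eno1. It had whole counts in 0 libraries and is not part of that ratio.

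Control_3NC 2 had the lowest ratio for 5 of the 8 pairs. Pgk2/Pgk1 was 9.70 there and 34.0 to 60.1 in the other libraries, as Pgk1 stood at 65.6 FPKM against 12.7 to 17.7 FPKM elsewhere. Pgam2/Pgam1 was 6.96 there against 12.6 to 24.4, and Gapdhs/Gapdh was 2.47 against 4.35 to 6.88. Ldhc/Ldha held between 4.52 and 5.00 in all 12 libraries. The raised leukocyte markers of control_3NC 2 stand beside these values, and their part in them was not tested.

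Over the 8 ratios and 2 comparisons, 16 exact two-sided permutation tests of the mean log2 ratio were run, and with 3 libraries against 3 none can give a p under 0.1. That smallest value was reached in 2 tests. Pgk2/Pgk1 was higher in overexpression than in control_5NC by 0.19 on the log2 scale (exact permutation p = 0.1, adjusted p = 0.8), with 34.0, 37.0 and 38.9 in control_5NC against 40.6, 40.8 and 44.3 in overexpression. Ldhal6b/Ldha was lower in knockdown than in control_3NC by 0.20 (exact permutation p = 0.1, adjusted p = 0.8), with 0.938, 0.964 and 1.06 in control_3NC against 0.896, 0.847 and 0.836 in knockdown. The other 14 tests had overlapping groups.

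**Figure D4:**
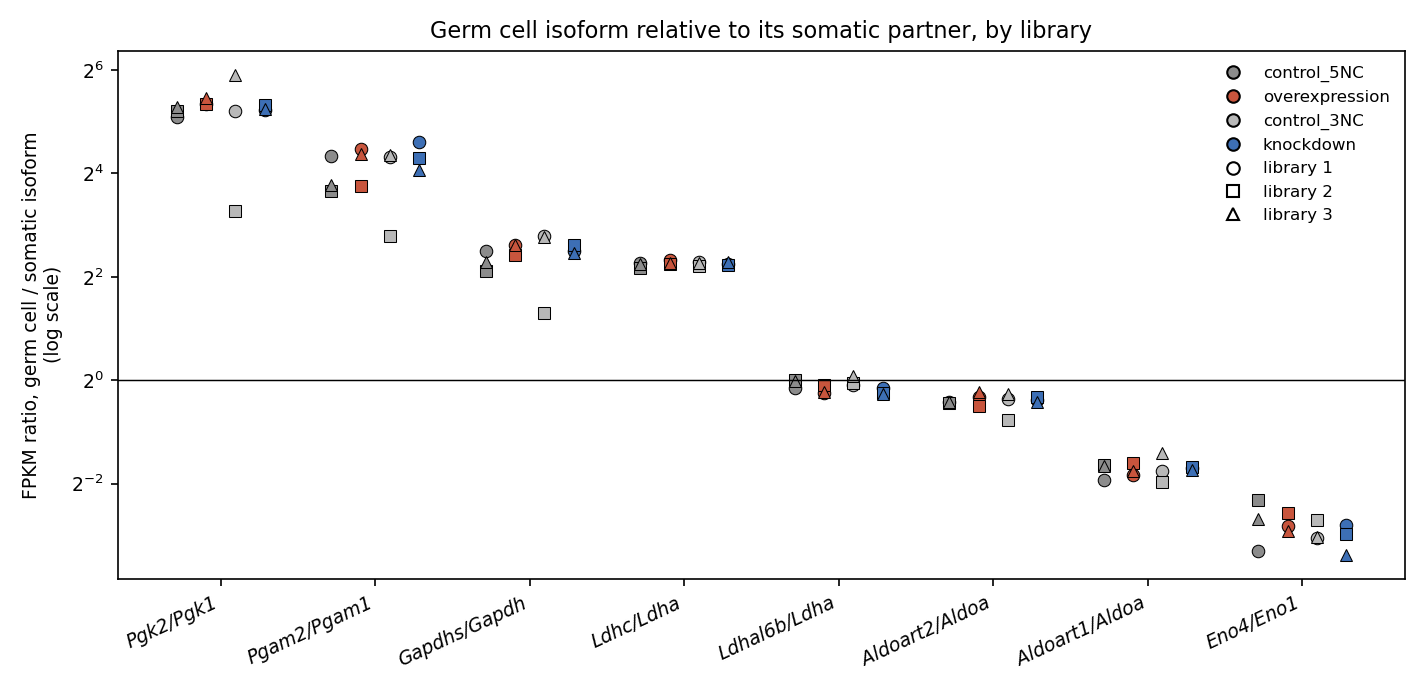
Ratio of FPKM of each germ cell form to its somatic partner (y axis, log scale) in every library, with groups by colour and library numbers by symbol. Pgk2/Pgk1 lies between 34.0 and 60.1 apart from 9.70 in control_3NC 2, Ldhc/Ldha stays within 4.52 to 5.00 in all libraries, and the aldolase copies and Eno4 lie under 1.

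The rest of the pathway was read from a list of 51 genes for somatic enzymes, regulators, sugar, lactate and pyruvate transport, pyruvate entry and sheath partners, of which 50 were in the table and 46 were tested. None of the 46 passed in any comparison, and the shares called over all genes are those given above. In overexpression against control_5NC 10 of the 46 had an unadjusted edgeR p under 0.05, with 6 higher and 4 lower, where 15.3% of all genes reached that level and 8.9% did so with a higher value. The median log2 fold change of the list was 0.029.

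Slc2a8, a hexose transporter abundant in testis, came nearest to the threshold. It was measured at 31.0, 23.5 and 26.4 FPKM in control_5NC and at 17.2, 16.45 and 15.7 FPKM in overexpression. The groups did not overlap, and the log2 fold change was -0.67 ± 0.13 (SE; edgeR adjusted p = 0.0501). Its level in control_3NC was 21.7, 17.0 and 16.4 FPKM and in knockdown 17.8, 17.1 and 17.7 FPKM, so control_5NC was the group that stood apart. Control_5NC was above control_3NC by 0.53 (edgeR adjusted p = 0.152), and the overexpression and knockdown effects differed by -0.60 (edgeR adjusted p = 0.580). The adjusted p of Slc2a8 in overexpression was 0.0324 with total counts alone as the scaling and 0.000575 with DESeq2, and it was 0.254 without overexpression 3.

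Slc2a3, the neuronal type glucose transporter that sperm also carry, had a log2 fold change of -0.24 in overexpression (edgeR adjusted p = 0.148), with 473.9 ± 16.1 FPKM in control_5NC and 384 ± 38.5 FPKM in overexpression (SD, n = 3 each). Its mean was 398 FPKM in control_3NC and 385 FPKM in knockdown, so control_5NC was again the group apart, at a log2 fold change of 0.23 against control_3NC (edgeR adjusted p = 0.269). Of the sheath partners, Akap3, Akap4 and Ropn1 all had higher values in overexpression, with a median of 0.20 and 0 of 3 called. Higher values were seen for 48% of all genes in that comparison. The same 3 genes all had lower values in control_5NC than in control_3NC, with a median of -0.19. In knockdown 1 was higher and 2 were lower than in control_3NC, with a median of -0.017. In knockdown against control_3NC the 2 smallest p-values were those of Hk3 and Tigar. Hk3, a hexokinase of blood cells, had a log2 fold change of -2.35 (edgeR adjusted p = 0.559) that rested on 8.26 FPKM in control_3NC 2, against 0.43 and 0.56 FPKM in the other control_3NC libraries and 0.55 to 0.70 FPKM in knockdown. Tigar, a fructose bisphosphatase that slows glycolysis, had a value of -0.27 (edgeR adjusted p = 0.559).

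Between the 2 control groups 10 of the 46 pathway genes had an unadjusted edgeR p under 0.05, with 3 higher and 7 lower in control_5NC, where 12.9% of all genes reached that level and 7.87% did so with a lower value. For the difference between the overexpression and knockdown effects, Akap4, the main structural protein of the fibrous sheath, followed Slc2a8 with 0.28 ± 0.12 (SE; edgeR adjusted p = 0.730).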

How the data were processed

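RNA from 12 F1 mouse testis libraries was compared in 4 groups of 3. Estimated counts by gene were deposited by the authors as read counts, per the file headers, and 88.2% of them are whole numbers. It also holds deposited values headed only as expression, which behave as FPKM on an effective length: the authors' program for both is not given in the sources used here. The submitters' processing notes list mm10 as genome build. Aligner and annotation are likewise not given. A further 18 columns, from 9 other samples, stayed out.

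Estimated counts were rounded to whole numbers. Genes were kept by filterByExpr (minimum count 10), which left 16395 and removed 4393 genes holding 0.0708% of counts. Counts were scaled by TMM and fitted over all 12 libraries with edgeR 4.0.16 in R 4.3.3 (quasi-likelihood F-test, Benjamini-Hochberg adjustment over all tested genes, threshold 0.05). The common dispersion was 0.0388, a coefficient of variation of 19.7%. Levels are deposited FPKM, and normalised CPM are counts scaled by TMM. Ratios were tested by exact permutation (scipy 1.17.1). The test was tried on simulated data. Libraries of 1 group differed by more than sampling noise in every pair (chi-square divided by degrees of freedom, 3.12 to 40.6). Depth of 13485479 to 15771655 counts put every member at 579 counts or more per library. Positions came from GENCODE M21 and promoter windows from RefSeq.

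Named genes were all 10 members, each pathway gene that passed or else the 2 with the smallest p per comparison, the somatic partners, and the 3 closest profiles of Pgk2, Ldhc and Gapdhs. One pathway gene that the rule names is not reported here. Ryr1, Ckm, Mylpf, Eno1b and the 3 sheath partners were named after their values were seen. The members and lists were chosen with earlier results of these data known. Alternatives were other scalings, no filter, DESeq2 1.42.0, limma-voom (limma 3.58.1), a replicate block, terms for low totals and effective length, fits of the compared groups alone, and leaving out each library.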

Additional observations from a re-analysis of the deposited data

How the results depend on the processing

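With 3 libraries a group, adjustment was over 16395 genes. Members called stayed at 0 under every alternative run, apart from DESeq2 for overexpression (2, Hk1 and Aldoart1) and the effective length term for control_5NC against control_3NC (1, Hk1, log2 fold change -0.34). All 112 alternative values of the isoform ratios moved by less than the SD within the groups compared. Signs still turned when 1 library was left out. In knockdown Pgk2/Pgk1 ran from -0.29 to 1.02 and Gapdhs/Gapdh from -0.25 to 0.49, and only Ldhal6b/Ldha kept its sign. In overexpression Aldoart1/Aldoa ran from -0.078 to 0.068 and Eno4/Eno1 from -0.26 to 0.23, and the other ratios kept their signs. The cause of each change below was not tested.

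The labels do not say that the replicate numbers pair the samples, and whether they do was not settled. Correlations of deviations between libraries of 1 number were 0.301, 0.375 and -0.152 for overexpression and control_5NC, and 0.0471, -0.0478 and -0.11 for knockdown and control_3NC. For control_5NC and control_3NC they were 0.383, 0.212 and 0.0323. Not every library correlated best with its own number. With the number as a replicate block, genes called were 269 for overexpression and 6 for the difference of the effects, pathway genes called for overexpression were 1 (Slc2a8), and Pgam2 had -0.00075 for control_5NC against control_3NC and -0.0067 for the difference.

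Genes called in overexpression against control_5NC were 78, 163 with total counts and 742 with DESeq2. In knockdown against control_3NC they were 3, 23 with DESeq2 and 0 in a fit of the compared groups alone (by edgeR, where the fit of all libraries gave 1424 genes at an unadjusted p under 0.05). In control_5NC against control_3NC they were 40, 68 with total counts, 299 with DESeq2, 13 with limma-voom, 6 with the low total term, 442 with the effective length term and 8 in the compared groups alone. For the difference of the effects they were 3, and 53 with DESeq2. Pathway genes called in overexpression went from 0 to 1 (Slc2a8) with DESeq2 size factors, total counts, the low total term and the effective length term, and to 5 with DESeq2. In control_5NC against control_3NC they went to 2 with DESeq2 and 3 with the effective length term.

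Leaving out 1 library gave 5 to 226 genes called for overexpression, 1 to 9 for knockdown, 7 to 130 for control_5NC against control_3NC and 3 to 12 for the difference. The extremes came without control_5NC 3 and overexpression 2, without control_3NC 1, knockdown 1 or knockdown 2 and control_3NC 3, without control_5NC 3 and control_3NC 2, and, for the 12, without control_3NC 3.

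No member had passed where its sign turned, as follows on the log2 scale. For Pgam2 in control_5NC against control_3NC the value was -0.0050 with DESeq2 size factors, -0.0052 with DESeq2, -0.0015 with limma-voom, -0.0017 in the compared groups alone and -0.18 with the effective length term. For Pgam2 in the difference it was -0.033 with total counts, -0.0026 with limma-voom, -0.19 with the low total term and -0.063 with the effective length term. Ldhal6b was at -0.030 in the difference with total counts and at -0.0037 in control_5NC against control_3NC with the low total term, where Gapdhs was at 0.092 and Aldoart2 at 0.029. Ldha in overexpression was at 0.00077 in the compared groups alone. With the effective length term, overexpression gave -0.075 for Ldhc and -0.18 for Pgam2. Knockdown gave -0.045 for Ldhc, -0.022 for Ldha, -0.15 for Gapdhs, 0.017 for Eno4, -0.080 for Aldoart2, -0.12 for Pgam2 and -0.045 for Hk1.

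Over the fits without 1 library, overexpression gave -0.00032 to 0.23 for Eno4 and -0.022 to 0.016 for Ldha. Knockdown gave -0.041 to 0.18 for Aldoart1, -0.15 to 0.15 for Eno4, -0.024 to 0.10 for Ldha, -0.032 to 0.12 for Ldhc and -0.16 to 0.078 for Pgk2. Control_5NC against control_3NC gave -0.051 to 0.17 for Eno4, -0.034 to 0.16 for Ldhal6b, -0.025 to 0.12 for Ldhc and -0.24 to 0.19 for Pgam2. The difference gave -0.048 to 0.25 for Eno4, -0.10 to 0.017 for Ldha, -0.086 to 0.11 for Ldhal6b, -0.061 to 0.087 for Ldhc and -0.17 to 0.26 for Pgam2.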
